A study of Mus musculus with 12 samples.

Results

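The hepatokines are proteins that the liver secretes and that act on other organs as hormones, carriers or inhibitors. The 8 genes Fgf21, Gdf15, Fgl1, Angptl4, Angptl6, Ahsg, Fetub and Lect2 were taken by symbol from a table of 25540 genes, and their mRNA was followed in 12 livers of BALB/c mice. The mice had been injected with iExos, taken here as a preparation of exosomes (small vesicles released by cells) from the title of the series, which also names liver fibrosis and STAT3, a transcription factor that relays interleukin-6 signals. The 4 groups of 3 livers received iExos with siSTAT3, siCntrl, mASO STAT3 or mASO Scrbl. The prefix si is usual for small interfering RNA and ASO for antisense oligonucleotide, the m is left unexplained there, and Scrbl is the scrambled control by its usual reading. All 4 groups share strain, tissue and vesicle injection. Neither age nor sex, dose, time or the way in which fibrosis was induced is stated there, and a liver without iExos was not analysed here. The siRNA arm below is siSTAT3 against siCntrl, and the mASO arm is mASO STAT3 against mASO Scrbl.

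Hepatokines fall into a few kinds by the way they work. FGF21 and GDF15 are stress hormones, and their genes are switched on by nutrient or protein-folding stress. FGF21 acts on adipose tissue and brain, and GDF15 on the hindbrain. FGL1 and the angiopoietin-like proteins share a fibrinogen-like domain and act on immune cells, vessels or plasma lipases, whereas fetuin-A and fetuin-B are abundant plasma proteins of the cystatin superfamily and LECT2 binds the hepatocyte growth factor receptor MET.

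Depth was 39844158 to 57926887 counts per library in siSTAT3, 55406038 to 67791159 in siCntrl, 50024153 to 61804382 in mASO STAT3 and 64619765 to 66498894 in mASO Scrbl. Levels are CPM, the usual depth-scaled counts, after composition scaling by TMM, whose factors were 0.804 to 0.901 in the STAT3 loads and 1.11 to 1.27 in the controls. A change is a log2 fold change of the STAT3 load over its control with its standard error, from edgeR's quasi-likelihood test on the counts, and it was called at a Benjamini-Hochberg adjusted p under 0.05 over the 15720 genes tested. Scaling by library totals instead moved the median log2 fold change of all genes to −0.53, against −0.04 with composition scaling, for siSTAT3, and to −0.63, against −0.05, for mASO STAT3. The share of calls that were higher then fell to 18.6%, against 48.9% with composition scaling, in the siRNA arm, and to 16.1%, against 48.6%, in the mASO arm. The targeted gene, Stat3, had 91.5 to 122 CPM in siSTAT3 and 106 to 121 CPM in siCntrl livers, and 88.2 to 115 CPM in mASO STAT3 and 89.9 to 106 CPM in mASO Scrbl livers. Its log2 fold change was −0.03 ± 0.14 (edgeR adjusted p = 0.867) and 0.05 ± 0.14 (adjusted p = 0.792) with composition scaling, but −0.54 (adjusted p = 0.00447) and −0.53 (adjusted p = 0.00413) with library totals. Nothing in the labels tells whether the 3 livers of a group are separate animals, cages or days, so the p-values cover whatever spread these libraries have, which may be technical.

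The hepatokines moved in 2 directions in the livers given a STAT3 load. In the siRNA arm Angptl6, Fetub and Lect2 rose and Fgf21, Gdf15, Fgl1 and Angptl4 fell, so that 7 of the 8 passed the test, beside 45.7% of all genes tested. In the mASO arm Angptl6, Ahsg, Fetub and Lect2 rose and Fgl1 and Angptl4 fell, so that 6 of the 8 passed, beside 43.8% of all genes. All 8 genes were kept by the filter on low counts. By direction, 3 were higher beside 22.4% of all genes and 4 lower beside 23.4% in the siRNA arm, and 4 were higher beside 21.3% and 2 lower beside 22.5% in the mASO arm. The CPM of the groups did not overlap for 7 of the 8 in the siRNA arm, beside 53% of all genes, and for 5 of the 8 in the mASO arm, beside 56.8%. For the siRNA load the median log2 fold change of the 8 was −0.24 and for the mASO load 0.54, beside medians of −0.04 and −0.05 over all genes. With library totals the medians of the 8 were −0.73 and −0.04, beside −0.53 and −0.63 over all genes.

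**Figure D1:**
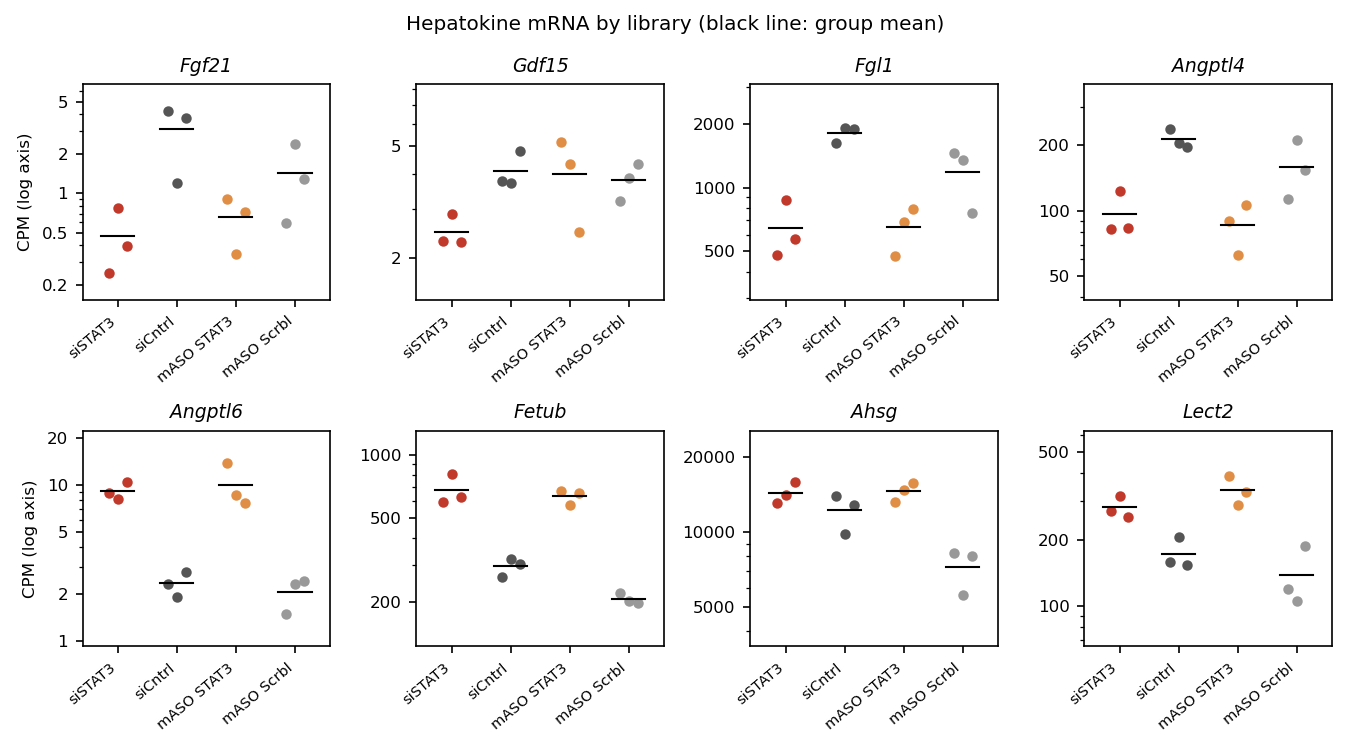
CPM of the 8 hepatokine genes in each of the 12 livers, on log axes, with a point per library and a black line at the group mean of 3. Angptl6, Fetub and Lect2 of every STAT3-load library lie above those of every control library, whereas the Fgf21, Gdf15 and Fgl1 points of mASO STAT3 and mASO Scrbl overlap.

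Fgf21 encodes fibroblast growth factor 21, which acts on adipose tissue and brain through FGFR1 with the co-receptor beta-Klotho, and which liver makes in fasting and under amino acid or protein-folding stress. Its counts were 12, 30 and 13 in siSTAT3 livers and 318, 84 and 264 in siCntrl livers, or 0.246, 0.771 and 0.399 CPM against 4.24, 1.21 and 3.79 CPM. The siCntrl liver with 1.21 CPM was the low one of its group, and every siSTAT3 liver lay below it. Fgf21 fell 6.54-fold, with a log2 fold change of −2.71 ± 0.64 (edgeR adjusted p = 0.00354). In the mASO arm it had 0.910, 0.342 and 0.724 CPM in mASO STAT3 livers and 0.595, 2.40 and 1.29 CPM in mASO Scrbl livers. These groups overlapped, and the log2 fold change of −1.12 ± 0.60 did not pass (adjusted p = 0.149), while with library totals it was −1.73 and passed (adjusted p = 0.0209). Fgf21 was the most variable of the 8 within groups, with a coefficient of variation of 57.2% in siSTAT3, 53.2% in siCntrl, 44.0% in mASO STAT3 and 63.8% in mASO Scrbl livers. By group mean its order was siCntrl (3.08 ± 1.64 CPM), mASO Scrbl (1.43 ± 0.91), mASO STAT3 (0.659 ± 0.290) and siSTAT3 (0.472 ± 0.270; SD, n = 3 each), and each pair of neighbours in that order overlapped.

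The Fgf21 promoter is shown because a C/EBP-ATF response element, the site bound by ATF4 and CHOP, is among the motifs looked for, and other ATF4 and CHOP genes are described further on. It is the RefSeq sequence of GRCm38.p6, chr7:45615441-45615740 on the minus strand, from 250 bases before the start site to 50 after it. The capitals mark, from the 5′ end, a match to TGATGNAA on the opposite strand at −139, an E-box CACGTG at −50 and a TATA box TATAAA at −28.
Fgf21 promoter: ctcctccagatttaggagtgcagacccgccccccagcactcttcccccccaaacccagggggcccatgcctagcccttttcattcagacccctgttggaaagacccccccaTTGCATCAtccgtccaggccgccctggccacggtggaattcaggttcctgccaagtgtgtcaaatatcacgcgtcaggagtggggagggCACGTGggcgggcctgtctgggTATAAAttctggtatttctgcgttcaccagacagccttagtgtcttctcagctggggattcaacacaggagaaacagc
Of 32851 promoters in the same table, 3.97% held TGATGNAA on either strand, 7.15% held CACGTG and 13.6% held TATAAA. RefSeq promoters were matched for 6 of the 8 hepatokines, with 8 start sites between them, and TGATGNAA was in that of Fgf21 alone. No promoter was matched for Fgl1 and Angptl4, so these 2 genes were not searched for any motif. The STAT palindrome TTCNNNGAA, present in 8.3% of all promoters, was in none of the 8 windows searched. Nor were the HNF4 motif CAAAGTCCA (0.475%) and an HNF1 motif (0.399%). Motifs were sought on both strands, and a match is a match of letters only.

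Gdf15 encodes growth differentiation factor 15, a stress-induced hormone that lowers food intake through the hindbrain receptor GFRAL with RET. It had 2.30, 2.88 and 2.27 CPM in siSTAT3 livers and 3.76, 3.70 and 4.80 CPM in siCntrl livers, 74 to 112 counts against 258 to 334. The groups did not overlap, and Gdf15 fell by 0.72 ± 0.27 on the log2 scale (edgeR adjusted p = 0.0452). That call was close to the threshold and was lost in 13 of 20 alternatives, the adjusted p reaching 0.144 without siCntrl replicate 3 and 0.0683 with the replicate block. Scaling by library totals made the fall −1.21 (adjusted p = 0.00266). In the mASO arm Gdf15 had 5.19, 4.32 and 2.48 CPM in mASO STAT3 livers and 3.19, 3.86 and 4.32 CPM in mASO Scrbl livers. The values overlapped, with a log2 fold change of 0.07 ± 0.27 (95% interval −0.50 to 0.65, adjusted p = 0.848) that had the other sign, −0.50 (adjusted p = 0.135), with library totals. The genes of its receptors, Gfral and Ret, were not tested in liver because their counts were too low.

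Fgl1 encodes fibrinogen-like protein 1, a hepatocyte product that binds the T-cell checkpoint receptor LAG3. It fell in both arms. The siSTAT3 livers had 479, 875 and 572 CPM and the siCntrl livers 1619, 1922 and 1897 CPM. All 3 siSTAT3 values were well below the siCntrl values, and the log2 fold change was −1.50 ± 0.28 (edgeR adjusted p = 6.58e-04). The mASO STAT3 livers had 472, 687 and 789 CPM and the mASO Scrbl livers 1461, 1348 and 762 CPM. One mASO Scrbl liver, at 762 CPM, lay within the range of the mASO STAT3 livers, so that the groups overlapped. The log2 fold change was −0.87 ± 0.27 (adjusted p = 0.0189), and it missed the threshold without mASO STAT3 replicate 1 (−0.69, adjusted p = 0.0810), without mASO Scrbl replicate 1 (−0.70, 0.0758) and without mASO Scrbl replicate 2 (−0.78, 0.0636). With library totals it was −1.45 (adjusted p = 5.91e-04). The order of the group means was siCntrl (1813 ± 168 CPM), mASO Scrbl (1190 ± 375), mASO STAT3 (650 ± 162) and siSTAT3 (642 ± 207), and the last 2 overlapped almost completely.

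Angptl4 encodes angiopoietin-like 4, an inhibitor of lipoprotein lipase and a known PPAR target. It fell in both arms. It had 82.7, 123 and 83.5 CPM in siSTAT3 livers and 238, 206 and 196 CPM in siCntrl livers, with a log2 fold change of −1.14 ± 0.24 (edgeR adjusted p = 0.00183). It had 90.1, 62.5 and 107 CPM in mASO STAT3 livers and 114, 211 and 153 CPM in mASO Scrbl livers, with a log2 fold change of −0.88 ± 0.24 (adjusted p = 0.00940). Neither pair of groups overlapped, though in the mASO arm the nearest values, 107 and 114 CPM, were close. Without mASO Scrbl replicate 2, the liver with 211 CPM, the change was −0.63 (adjusted p = 0.0506), and with library totals it was −1.48 (adjusted p = 1.23e-04).

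Angptl6 encodes angiopoietin-like 6, also called angiopoietin-related growth factor, which in mice promotes energy expenditure. It was a gene of low level that rose about as much in both arms. It had 8.89, 8.15 and 10.4 CPM in siSTAT3 livers and 2.33, 1.92 and 2.80 CPM in siCntrl livers, 317 to 433 counts against 134 to 195. It had 13.9, 8.67 and 7.67 CPM in mASO STAT3 livers and 1.49, 2.32 and 2.43 CPM in mASO Scrbl livers, 381 to 564 counts against 123 to 196. All 6 STAT3-load livers were above all 6 controls even by raw count. The gene rose 3.89-fold in the siRNA arm, 1.96 ± 0.27 on the log2 scale (edgeR adjusted p = 5.68e-05), and 4.83-fold in the mASO arm, 2.27 ± 0.27 (adjusted p = 1.78e-05). It passed in every one of 20 alternatives in each arm, with log2 fold changes of 1.47 to 2.11 for siSTAT3 and 1.69 to 2.43 for mASO STAT3.

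The ratio of Angptl4 to Angptl6 counts within a library, which no scaling between libraries can alter, is given as a description and with no test, since this pair and those that follow were chosen after their changes were seen. Angptl4 counts were 8.02 to 15.1 times those of Angptl6 in siSTAT3 livers and 70.0 to 107 times in siCntrl livers. The ratio was 6.49 to 13.9 in mASO STAT3 livers and 63.3 to 90.7 in mASO Scrbl livers. The mean log2 ratio was lower by 3.13 in each arm, and the groups did not overlap. The ratio of Fgl1 to Fetub shifted likewise, with 0.804 to 1.08 in siSTAT3 against 6.03 to 6.25 in siCntrl livers and 0.704 to 1.20 in mASO STAT3 against 3.87 to 6.71 in mASO Scrbl livers. Its log2 change was −2.74 with siSTAT3 and −2.47 with mASO STAT3. The counts of both genes of a pair are taken without regard to length, so the ratio compares groups and not the level of one gene with the other.

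**Figure D2:**
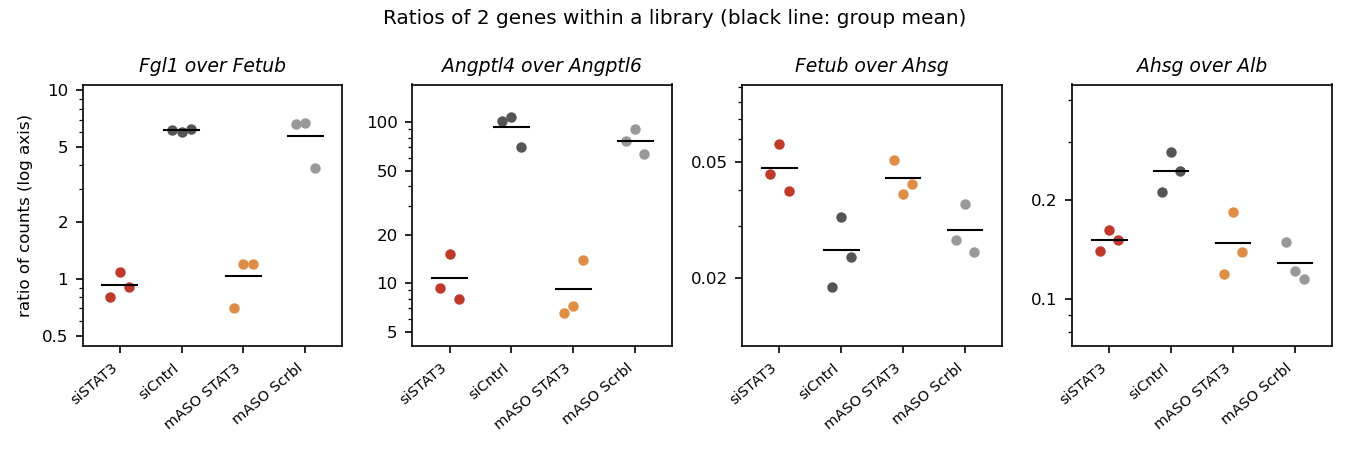
Ratio of the counts of 2 genes within each library, on log axes, with a point per library and a black line at the group mean of 3. The ratios of Fgl1 to Fetub and of Angptl4 to Angptl6 are lower in all STAT3-load libraries than in all controls, that of Fetub to Ahsg is higher within each arm, and that of Ahsg to Alb is lower in siSTAT3 than in siCntrl but overlaps between mASO STAT3 and mASO Scrbl.

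Fetub encodes fetuin-B, a liver protease inhibitor that in mice keeps the egg coat permeable before fertilisation by blocking the protease ovastacin. It rose in both arms, with the smallest standard errors of the 8. It had 596, 809 and 631 CPM in siSTAT3 livers and 262, 319 and 304 CPM in siCntrl livers, a 2.30-fold rise, 1.20 ± 0.15 on the log2 scale (edgeR adjusted p = 2.48e-05). It had 671, 576 and 659 CPM in mASO STAT3 livers and 221, 201 and 197 CPM in mASO Scrbl livers, a 3.08-fold rise, 1.62 ± 0.15 (adjusted p = 2.08e-06). The 6 STAT3-load livers lay between 576 and 809 CPM and the 6 controls between 197 and 319 CPM. The log2 fold change was 0.70 (adjusted p = 0.00107) and 1.04 (adjusted p = 4.60e-05) with library totals, and the gene passed in all 20 alternatives in each arm.

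Ahsg encodes fetuin-A, a plasma protein that binds calcium phosphate and can inhibit the insulin receptor. It was by far the most abundant of the 8, with 1.08% to 1.33% of all counts in the STAT3-load livers and 0.709% to 1.55% in the controls. It had 13090, 14074 and 15928 CPM in siSTAT3 livers and 14006, 9858 and 12902 CPM in siCntrl livers. The groups overlapped, and the log2 fold change of 0.23 ± 0.19 (95% interval −0.19 to 0.65) did not pass (edgeR adjusted p = 0.358). With library totals it had the other sign, −0.26 (adjusted p = 0.215). In the mASO arm it had 13252, 14809 and 15729 CPM in mASO STAT3 livers and 8235, 5586 and 8010 CPM in mASO Scrbl livers, without overlap. There Ahsg rose 2.01-fold, 1.0 ± 0.20 on the log2 scale (adjusted p = 9.80e-04), or 0.43 with library totals (adjusted p = 0.0431). The STAT3-load groups had like levels of 14364 ± 1441 CPM in siSTAT3 and 14597 ± 1252 CPM in mASO STAT3 livers, and the controls were 7277 ± 1469 CPM in mASO Scrbl and 12255 ± 2148 CPM in siCntrl livers (SD, n = 3 each). The 2 controls did not overlap, with a log2 difference of −0.75 ± 0.19 for mASO Scrbl over siCntrl that edgeR did not call (adjusted p = 0.411) and that DESeq2's Wald test did (adjusted p = 0.00997). The change in the mASO arm was greater than that in the siRNA arm by 0.78 ± 0.27 on the log2 scale, a difference that did not pass either (edgeR adjusted p = 0.640).

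Ahsg and Fetub are neighbours on chromosome 16, where by the order of genes in RefSeq they are followed by Hrg, Kng2 and Kng1, which encode histidine-rich glycoprotein and the kininogens, all of the cystatin superfamily. Hrg rose to 1369 ± 130 CPM in siSTAT3 livers, against 266 ± 43 CPM in siCntrl livers, and to 1193 ± 56 CPM in mASO STAT3 livers, against 265 ± 6 CPM in mASO Scrbl livers (log2 2.36 ± 0.15 and 2.17 ± 0.15, edgeR adjusted p = 9.79e-08 and 1.72e-07). Kng1 rose by 1.04 ± 0.17 and 1.31 ± 0.17 on the log2 scale (adjusted p = 2.57e-04 and 3.95e-05) and Kng2 by 0.81 ± 0.15 and 1.05 ± 0.15 (adjusted p = 6.54e-04 and 9.11e-05). Kng2 in the siRNA arm was not called with library totals (adjusted p = 0.0708). The neighbour on the other side of Ahsg with a protein product, Dnajb11, a chaperone gene, had log2 fold changes of −0.94 (adjusted p = 2.83e-04) and −0.57 (adjusted p = 0.00881). Within libraries the ratio of Fetub to Ahsg counts was 0.0396 to 0.0575 in siSTAT3 against 0.0187 to 0.0323 in siCntrl livers, and 0.0389 to 0.0507 in mASO STAT3 against 0.0246 to 0.0360 in mASO Scrbl livers. The log2 change of that ratio was 0.96 with siSTAT3 and 0.60 with mASO STAT3. Against albumin, the most abundant hepatocyte marker, Ahsg counts were 0.140 to 0.163 in siSTAT3 and 0.211 to 0.279 in siCntrl livers (log2 −0.69), and 0.120 to 0.184 in mASO STAT3 and 0.116 to 0.149 in mASO Scrbl livers, where they overlapped (log2 0.18).

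The promoters of these neighbours are shown side by side because the genes lie next to each other and Ahsg was the only hepatokine of the 4 that rose in the mASO arm to miss the threshold in the siRNA arm. Both are RefSeq sequences of GRCm38.p6 on the plus strand, chr16:22891765-22892064 for Ahsg and chr16:22918132-22918431 for the first of 2 start sites of Fetub, and run from 250 bases before the start site to 50 after it. The capitals in Fetub mark a TATA box TATAAA at −31, and none of the 6 motifs was found in the window of Ahsg.
Ahsg promoter: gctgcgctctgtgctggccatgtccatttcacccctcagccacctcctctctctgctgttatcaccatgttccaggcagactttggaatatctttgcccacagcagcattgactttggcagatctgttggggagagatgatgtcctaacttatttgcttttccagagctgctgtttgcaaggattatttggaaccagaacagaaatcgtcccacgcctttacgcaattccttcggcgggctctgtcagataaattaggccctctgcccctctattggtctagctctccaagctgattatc
Fetub promoter: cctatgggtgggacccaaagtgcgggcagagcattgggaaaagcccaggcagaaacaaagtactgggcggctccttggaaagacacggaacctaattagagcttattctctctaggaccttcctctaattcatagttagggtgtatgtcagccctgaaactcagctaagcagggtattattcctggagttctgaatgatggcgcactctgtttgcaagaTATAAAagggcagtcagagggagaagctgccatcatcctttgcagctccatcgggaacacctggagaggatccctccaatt

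Lect2 encodes leukocyte cell-derived chemotaxin 2, a hepatocyte product that binds MET and TIE1. It rose in both arms. It had 270, 317 and 254 CPM in siSTAT3 livers and 158, 206 and 153 CPM in siCntrl livers, and 389, 288 and 329 CPM in mASO STAT3 livers and 120, 105 and 188 CPM in mASO Scrbl livers. The groups did not overlap in either arm, and the lowest STAT3-load liver (254 CPM) was above the highest control (206 CPM). Lect2 gained 0.70 ± 0.21 on the log2 scale in the siRNA arm (edgeR adjusted p = 0.0133) and 1.28 ± 0.21 with the mASO load (adjusted p = 2.51e-04). The siRNA call was lost with library totals (0.19, adjusted p = 0.447) and without siCntrl replicate 3 (0.63, adjusted p = 0.0553), whereas in the mASO arm library totals gave 0.70 (adjusted p = 0.0112). Within libraries the ratio of Lect2 to Ahsg counts overlapped between groups in both arms.

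**Figure D3:**
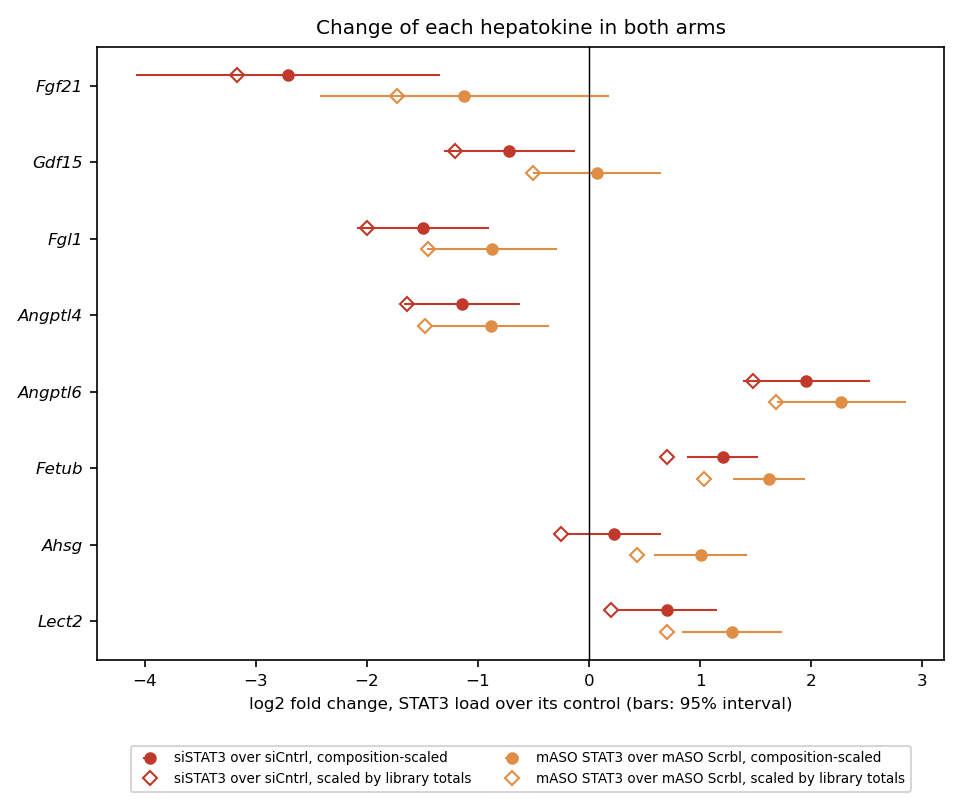
Log2 fold change of each hepatokine gene, siSTAT3 over siCntrl above and mASO STAT3 over mASO Scrbl below it, with filled circles and 95% intervals for composition scaling and open diamonds for scaling by library totals. The diamonds lie to the left of the circles throughout, and the sign differs between the scalings for Ahsg in the siRNA arm and Gdf15 in the mASO arm.

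Set per kilobase of the principal transcript, the genes differed in level by about the same order in every group. Ahsg came first in all 4 groups, at 9679 ± 971 CPM per kb in siSTAT3, 8258 ± 1448 in siCntrl, 9836 ± 844 in mASO STAT3 and 4903 ± 990 in mASO Scrbl livers. Fgl1 came next at 573 ± 185 CPM per kb in siSTAT3, 1619 ± 150 in siCntrl, 580 ± 145 in mASO STAT3 and 1063 ± 335 in mASO Scrbl livers. Its place depends on the length used, since its principal transcript has 1120 bases and the union of its annotated exons 4434. Lect2, Fetub and then Angptl4 stood in the middle, and in each group the ranges of Lect2 and Fetub per kb overlapped. Angptl6 stood above Gdf15 and Fgf21 in the STAT3 loads, at 5.78 ± 0.73 CPM per kb in siSTAT3 and 6.37 ± 2.11 in mASO STAT3 livers, and below both by mean in the controls, at 1.49 ± 0.28 in siCntrl and 1.32 ± 0.32 in mASO Scrbl livers (SD, n = 3 each).

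The 2 arms were then compared directly. For none of the 8 did the change in the mASO arm differ from that in the siRNA arm by edgeR's test of the difference, beside 0.00636% of all genes. The 8 of 8 differences were positive, with a median of 0.60, beside −0.01 over all genes. All 8 genes were read in the same 12 livers, so their shared sign is not 8 separate results. Ahsg, at 0.78, was the 1 gene of the 8 with an unadjusted p under 0.05, and the largest difference was that of Fgf21, 1.59 ± 0.86 (edgeR adjusted p = 0.704). Between the controls, mASO Scrbl over siCntrl, edgeR called none of the 8, beside 0.0127% of all genes, and 3 had an unadjusted p under 0.05. These were Ahsg, Fetub (−0.51 ± 0.15, edgeR adjusted p = 0.502) and Fgl1 (−0.61 ± 0.27, adjusted p = 0.622), and the values of the 3 did not overlap between the controls, as was true of 12.4% of all genes. Between the STAT3 loads, mASO STAT3 over siSTAT3, edgeR called none of the 8, beside 0% of all genes, and only Gdf15 had an unadjusted p under 0.05 (0.68 ± 0.27, edgeR adjusted p = 0.737). DESeq2's Wald test called 1 of the 8, Ahsg, between the controls. The share of all genes with an unadjusted p under 0.05 was not counted, nor was the share that DESeq2 called between the controls. The comparison of arms shares its samples with the comparisons of loads, so these values are not independent.

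The receptors and partners on which these hormones act were then read in the same livers. Of 11 tested, 3 were higher and 6 lower in the siRNA arm, and 1 was higher and 2 lower in the mASO arm. Counts for this list and those below stand against a background of many calls. Comparing siSTAT3 with siCntrl, edgeR called 22.4% of all genes higher and 23.4% lower. For mASO STAT3 over mASO Scrbl the shares were 21.3% and 22.5%. Whether any list departed from these shares was not tested. Itgav and Itgb1, subunits of integrins, fell in both arms, Itgav to 17.2 ± 1.4 CPM in siSTAT3 against 39.3 ± 2.8 CPM in siCntrl livers and to 17.7 ± 2.1 CPM in mASO STAT3 against 43.9 ± 3.6 CPM in mASO Scrbl livers (log2 −1.19 ± 0.13 and −1.31 ± 0.13, edgeR adjusted p = 8.45e-06 and 3.70e-06). Insr, the insulin receptor, rose by 0.92 ± 0.12 and 0.74 ± 0.12 on the log2 scale (adjusted p = 4.26e-05 and 2.53e-04), and was not called in the mASO arm with library totals (adjusted p = 0.25). The mASO count of 2 lower was 5 without mASO STAT3 replicate 2 and 6 with library totals, which left 1 higher in the siRNA arm and 0 in the mASO arm. Klb, Lag3 and Met were singled out after their values were seen, as the genes of receptors or co-receptors of members. Klb, which encodes beta-Klotho, had log2 fold changes of 0.55 ± 0.30 (adjusted p = 0.149) and 0.76 ± 0.30 (adjusted p = 0.0523), and Lag3, with about 1 CPM, of 0.17 ± 0.42 (adjusted p = 0.764) and 0.71 ± 0.41 (adjusted p = 0.180). Met passed in the siRNA arm (0.56 ± 0.14, adjusted p = 0.00468) and not in the mASO arm (0.26 ± 0.14, adjusted p = 0.140). With library totals Met was at 0.06 (adjusted p = 0.752) and −0.33 (adjusted p = 0.0556), and Lag3 in the siRNA arm at −0.35 (adjusted p = 0.510).

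A further list held the genes of the FGF receptors and of the growth factor signal that FGF21 shares with other ligands. Of 12 tested, 6 were lower and 0 higher in the siRNA arm and 7 lower and 1 higher in the mASO arm. Egr1, Fos, Dusp6, Spry2, Etv4 and Etv5, genes of the signal, were lower in both arms. Spry4, the remaining signal gene of the list, was called in neither. Of the receptor genes none passed in the siRNA arm, and in the mASO arm Fgfr2 was lower and Fgfr3 higher. Egr1, an immediate early transcription factor gene, fell to 5.18 ± 2.76 CPM in siSTAT3 against 83.2 ± 21.0 CPM in siCntrl livers and to 4.09 ± 0.30 CPM in mASO STAT3 against 53.7 ± 8.8 CPM in mASO Scrbl livers (log2 −4.01 ± 0.35 and −3.71 ± 0.35, edgeR adjusted p = 2.70e-06 and 4.32e-06). Etv5, a transcription factor gene induced by ERK signalling, fell in both arms (log2 −1.32 ± 0.19 and −1.41 ± 0.18, adjusted p = 6.95e-05 and 3.91e-05). The mASO count of 1 higher ranged from 0, with library totals or without mASO STAT3 replicate 1 or 2 or mASO Scrbl replicate 2 or 3, to 3, without mASO Scrbl replicate 1. The level of FGF21 protein or of the signal itself was not measured.

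Regulators known to switch on Fgf21 and Gdf15 were represented by 14 ATF4 and CHOP stress genes, all tested. In the siRNA arm 7 were lower and 0 higher, and in the mASO arm 7 lower and 2 higher, or 11 lower and 0 higher with library totals. Psat1, an enzyme of serine synthesis, fell to 0.685 ± 0.257 CPM in siSTAT3 against 81.2 ± 12.3 CPM in siCntrl livers and to 0.636 ± 0.0505 CPM in mASO STAT3 against 100.1 ± 16.8 CPM in mASO Scrbl livers (log2 −6.90 ± 0.25 and −7.29 ± 0.25, edgeR adjusted p = 1.07e-09 and 8.12e-10). Asns, asparagine synthetase, fell likewise (log2 −4.34 ± 0.41 and −3.91 ± 0.39, adjusted p = 2.72e-06 and 4.28e-06). Atf5, a transcription factor of the same stress response, fell less (log2 −1.39 ± 0.24 and −0.83 ± 0.23, adjusted p = 3.39e-04 and 0.0107). Atf4 and Ddit3, which encodes CHOP, were singled out after their values were seen. In the siRNA arm Atf4 had −0.06 ± 0.16 (adjusted p = 0.786) and Ddit3 −0.33 ± 0.30 (adjusted p = 0.401), and in the mASO arm Atf4 had 0.43 ± 0.16 (adjusted p = 0.0461) and Ddit3 −0.66 ± 0.30 (adjusted p = 0.0931). With library totals both were called lower in the siRNA arm (Atf4 −0.55, adjusted p = 0.0104, and Ddit3 −0.83, adjusted p = 0.0386), and in the mASO arm Ddit3 was called lower (−1.23, adjusted p = 0.00455) while Atf4 had the other sign, −0.15 (adjusted p = 0.432). The 2 higher stress genes of the mASO arm, Atf4 and Cebpb, were not both called when any mASO library or siSTAT3 replicate 1 was left out, without the filter on low counts, or with the replicate block, which called 1.

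Angptl4 and Fgf21 are also targets of PPARA, the fatty acid sensor of hepatocytes, and 16 genes of the PPARA, CREBH and PPARD group were tested. In the siRNA arm 5 were higher and 3 lower, and in the mASO arm 6 higher and 2 lower, with 1 and 3 higher when scaled by library totals. Plin2, a coat protein of lipid droplets, fell to 245 ± 39 CPM in siSTAT3 against 2401 ± 486 CPM in siCntrl livers and to 348 ± 18 CPM in mASO STAT3 against 2788 ± 1055 CPM in mASO Scrbl livers (log2 −3.29 ± 0.25 and −3.0 ± 0.25, edgeR adjusted p = 4.48e-07 and 9.20e-07). Cidec, which enlarges lipid droplets, fell likewise (log2 −4.44 ± 0.47 and −4.65 ± 0.47, adjusted p = 1.92e-05 and 1.43e-05). Of 10 p53 and hypoxia genes, other known inducers of Gdf15 and Angptl4 among them, 2 were higher and 5 lower in each arm. Cdkn1a, a cell cycle inhibitor, fell in both (log2 −5.47 ± 0.45 and −3.91 ± 0.41, adjusted p = 2.42e-06 and 1.44e-05). The 2 higher genes were the same in each arm, the hypoxia genes Bnip3 and Vegfa. Bnip3 rose by 1.41 ± 0.18 and 1.74 ± 0.18 on the log2 scale (edgeR adjusted p = 3.33e-05 and 6.06e-06). Vegfa rose by 1.34 ± 0.20 and 1.40 ± 0.20 (adjusted p = 1.16e-04 and 8.43e-05). The siRNA count of 5 lower was 3 without siCntrl replicate 1, without siSTAT3 replicate 2, with the siRNA groups fitted alone and with the replicate block.

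**Figure D4:**
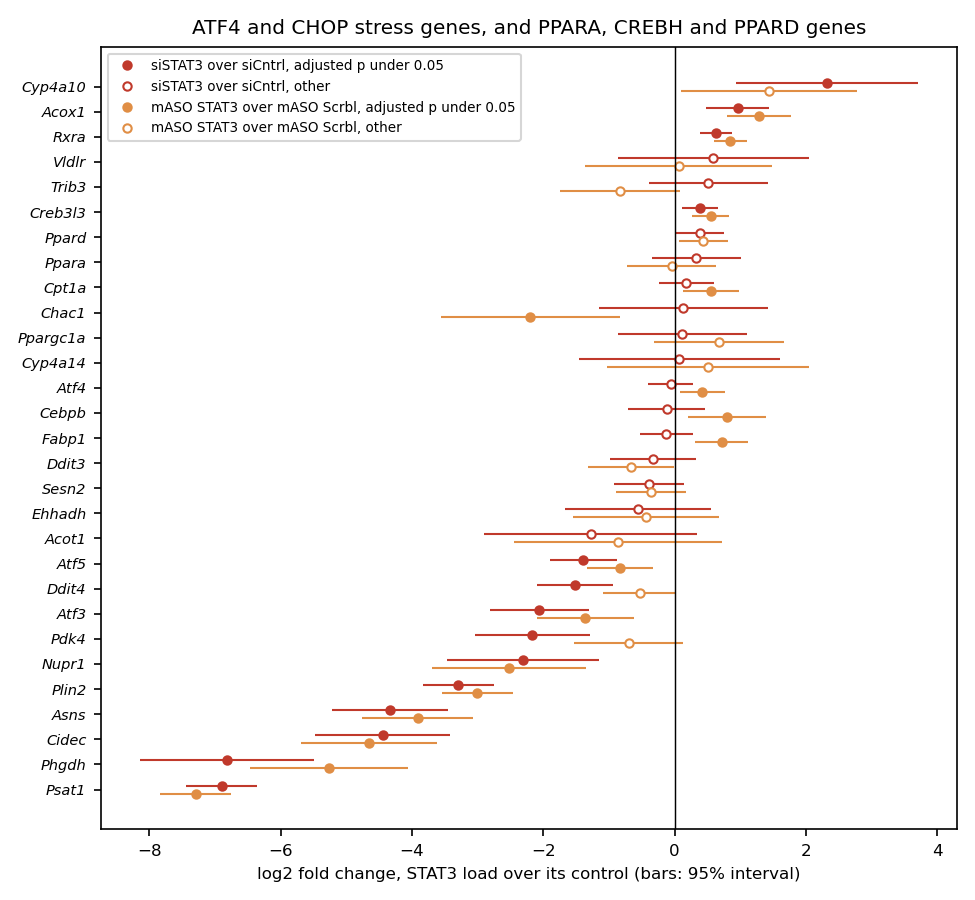
Log2 fold changes with 95% intervals of the 14 ATF4 and CHOP stress genes and of 15 of the 16 PPARA, CREBH and PPARD genes, siSTAT3 over siCntrl (red) above mASO STAT3 over mASO Scrbl (orange), filled where the adjusted p was under 0.05. Psat1, Phgdh, Cidec, Asns and Plin2 lie farthest to the left in both arms, with Psat1 at −6.90 and −7.29.

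Relatives of the members by sequence family or pathway did not move as one group. Among 12 other angiopoietin-like and plasma lipase genes tested, 5 were higher and 2 lower in the siRNA arm and 7 higher and 0 lower in the mASO arm, or 4 higher and 3 lower in the mASO arm with library totals. Lipc, hepatic lipase, rose by 2.42 ± 0.26 and 1.89 ± 0.26 on the log2 scale (edgeR adjusted p = 1.05e-05 and 6.95e-05). The siRNA count of 2 lower ranged from 0, without siSTAT3 replicate 3, to 4, with library totals. Of 8 fibrinogen and cystatin relatives, all tested, 3 were higher and 1 lower in the siRNA arm and 4 higher and 1 lower in the mASO arm. The 1 lower was Fgl2 in each arm, with a log2 fold change of −1.48 ± 0.34 for siSTAT3 (edgeR adjusted p = 0.00307). Its mASO call was lost with limma voom, without any 1 of the mASO STAT3 replicates and without mASO Scrbl replicate 3. The 3 fibrinogen genes Fga, Fgb and Fgg, relatives of Fgl1 that were singled out after their values were seen, passed in neither arm, with log2 fold changes of −0.50 ± 0.22, −0.34 ± 0.22 and −0.11 ± 0.20 for siSTAT3 and of −0.13 ± 0.22, −0.16 ± 0.22 and 0.40 ± 0.20 for mASO STAT3 (edgeR adjusted p = 0.0806 to 0.689 and 0.119 to 0.671). With library totals all 3 were called lower in the siRNA arm (−1.01, −0.84 and −0.61, adjusted p = 0.00283, 0.00603 and 0.0188). In the mASO arm that scaling called Fga and Fgb lower (−0.70 and −0.73, adjusted p = 0.0206 and 0.0120) and turned Fgg to −0.18 (adjusted p = 0.462).

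Of 27 other hormones and binding proteins secreted by the liver, 13 were higher and 6 lower in the siRNA arm and 14 higher and 5 lower in the mASO arm. Igfals, the acid-labile subunit that holds IGF1 in the circulation, rose to 251 ± 21 CPM in siSTAT3 against 25.9 ± 7.1 CPM in siCntrl livers and to 260 ± 52 CPM in mASO STAT3 against 25.2 ± 7.9 CPM in mASO Scrbl livers (log2 3.28 ± 0.26 and 3.37 ± 0.26, edgeR adjusted p = 7.24e-07 and 6.55e-07). Hgfac, an activator of hepatocyte growth factor, rose by 1.82 ± 0.15 and 1.77 ± 0.15 (adjusted p = 6.57e-07 and 8.65e-07). Fst, follistatin, which binds activins, fell to 0.309 ± 0.115 CPM in siSTAT3 against 16.2 ± 5.2 CPM in siCntrl livers and to 0.421 ± 0.224 CPM in mASO STAT3 against 10.9 ± 2.1 CPM in mASO Scrbl livers (log2 −5.71 ± 0.42 and −4.65 ± 0.39, adjusted p = 3.07e-07 and 9.48e-07). The mASO count of 5 lower was 3 without mASO STAT3 replicate 1, mASO Scrbl replicate 1 or mASO Scrbl replicate 2.

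**Figure D5:**
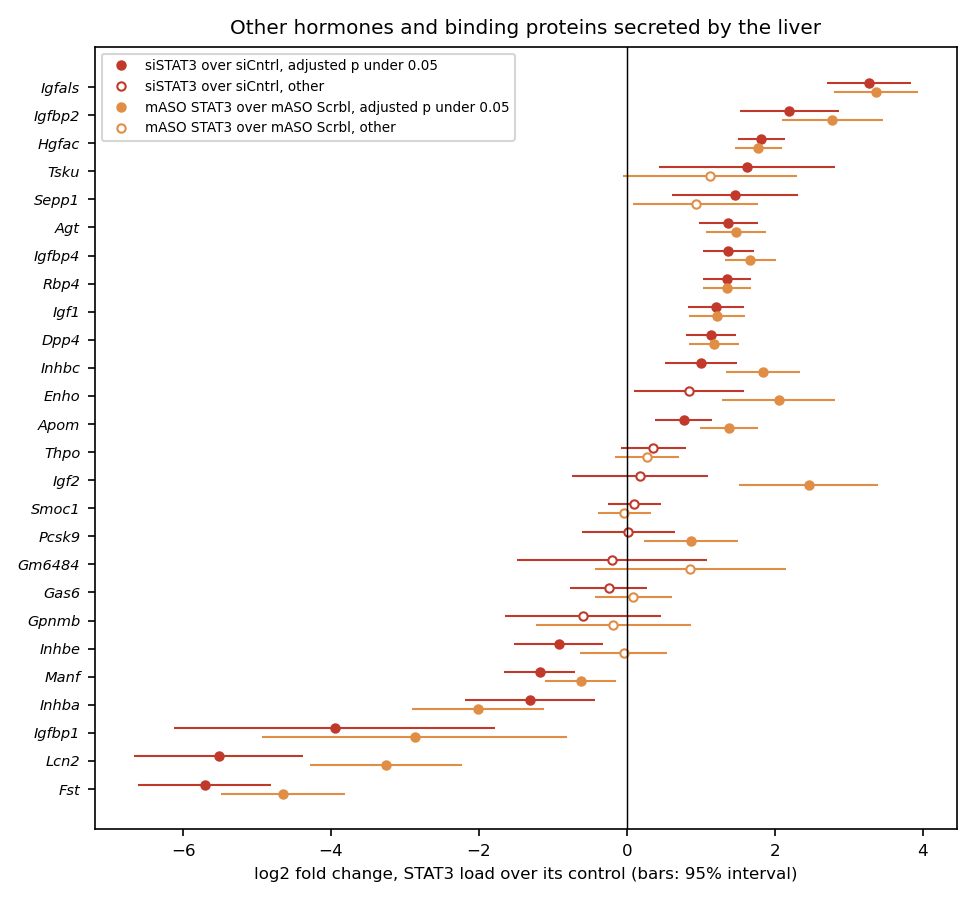
Log2 fold changes with 95% intervals of 26 of the 27 other hormones and binding proteins of the liver, siSTAT3 over siCntrl (red) above mASO STAT3 over mASO Scrbl (orange), filled where the adjusted p was under 0.05. Igfals is the highest in both arms, at 3.28 and 3.37, and Fst the lowest, at −5.71 and −4.65, and Gm6484 and Sepp1 are the deposited symbols of Angptl8 and Selenop.

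The hepatokines are made mainly by hepatocytes, and the markers of liver cell types moved with the groups. Hepatocyte markers, 15 of 15 tested, summed to 146626 to 158068 CPM in siSTAT3 against 52666 to 91990 CPM in siCntrl livers and to 128829 to 170931 CPM in mASO STAT3 against 58924 to 89258 CPM in mASO Scrbl livers. Of these 9 were higher and 0 lower in the siRNA arm, and 13 higher and 0 lower in the mASO arm, or 8 higher in the mASO arm with library totals. Stellate cell and myofibroblast markers, 11 of 11 tested, summed to 291 to 434 CPM in siSTAT3 against 1447 to 1938 CPM in siCntrl livers and to 425 to 505 CPM in mASO STAT3 against 1015 to 2215 CPM in mASO Scrbl livers, and 9 were lower and 1 higher in the siRNA arm and 8 lower and 2 higher in the mASO arm. With library totals 0 were higher in the siRNA arm and 1 in the mASO arm, and the siRNA count of 1 higher was 0 without siCntrl replicate 3 and 2 without siSTAT3 replicate 2. Kupffer cell and macrophage markers, 13 of 13 tested, summed to 488 to 592 CPM in siSTAT3 against 1153 to 2247 CPM in siCntrl livers and to 506 to 561 CPM in mASO STAT3 against 934 to 1816 CPM in mASO Scrbl livers, with 7 lower and 1 higher in the siRNA arm and 4 lower and 2 higher in the mASO arm. Spp1 alone reached 1346 CPM in siCntrl and 1292 CPM in mASO Scrbl livers. The higher ones were Timd4 in both arms and Clec4f in the mASO arm, and Vsig4 was called in neither arm. With library totals the mASO count was 7 lower and 0 higher, and in the siRNA arm 0 were higher with library totals, with the replicate block and without siCntrl replicate 1, siCntrl replicate 3 or siSTAT3 replicate 3. In that arm 2 were higher with DESeq2's Wald test, with limma voom and without siCntrl replicate 2 or mASO Scrbl replicate 1. The mASO count of 2 higher was 0 without mASO Scrbl replicate 2 or 3 and 1 without siSTAT3 replicate 1 or 2 or any mASO STAT3 replicate. It was also 1 without the filter on low counts and with the replicate block. In whole liver, fewer cells of a type and less RNA per cell cannot be told apart, and the part of these shifts in the hepatokine changes was not tested.

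Endothelial markers, 10 of 10 tested, were 6 lower and 0 higher in the siRNA arm and 4 lower and 1 higher in the mASO arm, and summed to 151 to 245 CPM in siSTAT3 against 217 to 263 CPM in siCntrl livers and to 159 to 262 CPM in mASO STAT3 against 206 to 248 CPM in mASO Scrbl livers. The mASO count of 4 lower was 2 without mASO STAT3 replicate 1 or 3 or mASO Scrbl replicate 1 or 3. The 1 higher was 0 with library totals, without the filter on low counts and without mASO STAT3 replicate 1 or 2 or mASO Scrbl replicate 1 or 2, and 2 without mASO STAT3 replicate 3. Cholangiocyte markers, 6 of 7 tested, were 4 lower in the siRNA arm and 3 lower in the mASO arm and 0 higher in either, and summed to 81.8 to 133 CPM in siSTAT3 against 540 to 1376 CPM in siCntrl livers and to 67.8 to 93.6 CPM in mASO STAT3 against 581 to 1322 CPM in mASO Scrbl livers, most of it Spp1, which stands also in the macrophage list. Adipocytes, another source of Angptl4, were all but absent by their markers: none of 5 found in the table was tested and their sum reached 0.0921 CPM at most. Of 6 pancreatic acinar markers in the table only Cela1 was tested, and Pnlip and Amy2a1 had 0 counts in all 12 livers. Lymphocyte and blood markers, 10 of 10 tested, were 2 lower and 0 higher in the siRNA arm and 2 lower and 2 higher in the mASO arm, and summed to 165 to 211 CPM in siSTAT3 against 117 to 191 CPM in siCntrl livers and to 111 to 217 CPM in mASO STAT3 against 162 to 222 CPM in mASO Scrbl livers. The siRNA count of 2 lower was 0 without siCntrl replicate 3. The mASO count of 2 lower was 0 without mASO STAT3 replicate 1 or 3 or mASO Scrbl replicate 1, and without the filter on low counts. Some further settings gave 1 lower in either arm. The siRNA count of 0 higher was 2 with DESeq2's Wald test, and 1 with limma voom and in some other settings. In the mASO arm 0 were higher with library totals. Of 12 transcription factors that set hepatocyte identity, 4 were higher and 1 lower in the siRNA arm and 3 higher and 1 lower in the mASO arm. With library totals 2 were lower in the siRNA arm and 5 in the mASO arm, and without mASO STAT3 replicate 2 or mASO Scrbl replicate 1 the mASO count was 0. Cebpa rose to 538 ± 22 CPM in siSTAT3 against 153 ± 42 CPM in siCntrl livers and to 453 ± 39 CPM in mASO STAT3 against 125 ± 27 CPM in mASO Scrbl livers (log2 1.81 ± 0.20 and 1.86 ± 0.20, edgeR adjusted p = 1.16e-05 and 9.13e-06), while Hnf4a, singled out after its values were seen, had 0.27 ± 0.20 and 0.22 ± 0.20 (adjusted p = 0.279 and 0.400), or −0.21 and −0.35 with library totals (adjusted p = 0.389 and 0.142).

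Likeness of pattern was measured as the root mean square difference of log2 CPM, each gene centred on its mean over the 12 livers, which share depth and scaling. Among the 8, Fetub and Lect2 were most alike (0.33), then Ahsg and Lect2 (0.39) and Angptl4 and Fgl1 (0.41), and the least alike were Angptl6 and Fgf21 (2.05). Among 12413 tested genes with a mean of at least 1 CPM, the closest to Fetub were Aqp9 (0.125), a glycerol channel gene, and Tfr2 (0.129), transferrin receptor 2. The closest to Angptl6 were Tm7sf2 (0.258), a gene of cholesterol synthesis, and Slc27a5 (0.270), bile acyl-CoA synthetase. The closest to Fgl1 were Rom1 (0.287) and Atf5 (0.291), and Atf5 was also among the stress genes above that fell in both arms. Stom (0.250) and Cblb (0.270) were closest to Angptl4, Slc44a3 (0.174) and C4bp (0.174) to Ahsg, Reln (0.148) and Slc4a8 (0.169) to Lect2, and Gng11 and Fam171a1 (0.203 each) to Gdf15. For Fgf21 the closest, Serpina7 (0.599), which encodes thyroxine-binding globulin, and Wdr93 (0.632), were far less close, over a gene whose own values varied most.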

How the data were processed

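For the 12 livers the authors deposited whole-number counts by gene symbol, not normalized. The authors' second table, of normalized signal, equals these counts over 1 factor for each library and was read for that check alone. The kit was a stranded Illumina mRNA one on TRIzol extracts, per the labels' protocols. Per the submitters' processing notes, TopHat and Cufflinks were among the tools, their versions and roles not being given, and neither build, annotation nor counter is stated in the sources used. Reads of overlapping, antisense and closely related genes may be shared between them.

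A single edgeR fit (4.0.16, R 4.3.3) took all 12 libraries, a coefficient for every group, TMM scaling of the library totals and edgeR's filter (minimum count 10, minimum total 15), leaving 15720 genes and dropping 9820. Its robust quasi-likelihood F test had 8 residual degrees of freedom. The test was also run on simulated counts, in which far fewer genes changed than were called here. That simulation set no shift in composition, so it does not bear on the choice of scaling. The biological coefficient of variation was 0.247. Standard errors are the log2 fold change over the square root of F. Comparisons were each STAT3 load against its control, one arm against the other, control against control, and STAT3 load against STAT3 load.

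Alternatives were DESeq2's size factors and Wald test (1.42.0), limma voom (3.58.1), library totals, no filter, a stricter filter (1 CPM in 3 libraries), the replicate number as a block, only the compared groups, and 1 library left out at a time. Between libraries of 1 number the residuals correlated at −0.24 to 0.19, hence the numbers are not read as pairs. Libraries of a group differed by a chi-square per degree of freedom of 49.1 to 208, far above sampling noise. Depth was 39844158 to 67791159 counts, and precision is limited by 3 livers per group.

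The members and the 17 other gene lists were chosen with earlier results of these data known. Named genes were the 8 members, from each other list up to 4 with the smallest p per arm, the 2 genes most like each member, and Stat3. Examples among them were picked after their values were seen. Of 211 list symbols, 209 were found, 3 of them under older names. Transcript lengths came from GENCODE M21 and promoters from RefSeq's GRCm38.p6. Values of some listed genes are not reported here, though the counts over their lists include them.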

Additional observations from a re-analysis of the deposited data

How the results depend on the processing

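Of 139 alternative counts of calls over the members or all genes, 138 stayed within 1.5 times the reported count, and 1 did not, the number of members called between the controls, which was 1 with DESeq2's Wald test and 0 with edgeR. Counts of 0 against 0 were scored as unchanged, and direction was not weighed, so the tally is a loose check. With library totals the siRNA arm had 1655 genes higher and 7266 lower, against 3515 and 3675 with composition scaling. Leaving out 1 library at a time gave 5 to 7 members called in the siRNA arm, 4 to 6 in the mASO arm and 0 in the other 3 comparisons. Over all genes it gave 5980 to 7134 calls in the siRNA arm and 5672 to 7455 in the mASO arm. Scaling by library totals turned the log2 fold change of Stat3 in the mASO arm to −0.53, and it called 6 members in the siRNA arm and 7 in the mASO arm. Of the 15720 genes that scaling called 8921 in the siRNA arm and 9464 in the mASO arm, against 7190 and 6886 with composition scaling. With the replicate block 6 members were called in each arm, beside 6759 of all genes in the siRNA arm and 6473 in the mASO arm. Of the members' calls only that of Gdf15 in the siRNA arm changed with the block (edgeR adjusted p = 0.0683). Of 1360 alternative counts over the gene lists, 1234 were within 1.5 times the reported count and 126 were not. Calls on Angptl6 and Fetub held in both arms under all 20 alternatives, as did those on Fgf21, Fgl1 and Angptl4 in the siRNA arm and Ahsg and Lect2 in the mASO arm. Fgf21, with 12 to 37 counts per library in the STAT3 loads, is the member whose depth limits precision most.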
